A study of Mus musculus with 24 samples.

Results

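The genes described here encode digestive enzymes that acinar cells of the pancreas make and release into the intestine, together with colipase, a cofactor of pancreatic lipase. They are Prss2, Try4, Cpa1, Cel, Ctrb1, Cela1, Cela2a, Cela3b, Clps and Amy2b, chosen by name. For each, the probe set annotated to that symbol alone was read, and all 10 had exactly 1. They are 10 of the 30702 genes that a probe set of their own represents on these arrays. RNA was measured on 24 arrays, 4 in each of 6 groups of mouse samples. Fetal organoids came from intestine at embryonic day 19 and adult organoids from adult intestine, each sampled at day 3 and at day 30 of culture. Intestinal tissue was taken at postnatal day 0 (P0) and from adults, without culture. Organoids are epithelial cultures in gel, and all 4 organoid groups were grown in ENR, a medium with EGF, Noggin and R-spondin. The labels give no strain, genotype or gut region, and do not say whether replicates came from separate animals or cultures. P-values therefore measure the spread between these samples, which may be technical.

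Acinar cells store most of these proteins as inactive precursors in zymogen granules and secrete them through the pancreatic duct into the duodenum. There enteropeptidase, a protease of the intestinal brush border, activates trypsinogen, and trypsin activates the other protease precursors. In the pancreas the genes are driven together by a complex around the transcription factor Ptf1a with Rbpjl, which binds an E-box together with a second element close to TTTCCC. Most of the enzymes serve as pancreatic markers, whereas several acinar secreted proteins, colipase among them, are also known from stomach or intestinal epithelium.

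RefSeq promoters (assembly GRCm38.p6) were listed for 9 of the 10 genes, with none for Clps. The stretches from 180 to 61 bases before the start of transcription are shown for 5 of them. They show members that hold the sites at different places and Ctrb1, which like Cpa1 (not shown) holds neither in this stretch. They run 5′ to 3′ on the gene's strand. Capitals mark CACCTG, an E-box, and TTTCCC, each on either strand (CAGGTG and GGGAAA).
Prss2 (chr6:41521596-41521715, plus strand): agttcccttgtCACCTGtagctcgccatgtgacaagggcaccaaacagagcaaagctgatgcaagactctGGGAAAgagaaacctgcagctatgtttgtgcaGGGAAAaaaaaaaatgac
Try4 (chr6:41302092-41302211, plus strand): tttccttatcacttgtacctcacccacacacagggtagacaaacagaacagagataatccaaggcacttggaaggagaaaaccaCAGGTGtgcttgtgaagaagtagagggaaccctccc
Cel (chr2:28563464-28563583, minus strand): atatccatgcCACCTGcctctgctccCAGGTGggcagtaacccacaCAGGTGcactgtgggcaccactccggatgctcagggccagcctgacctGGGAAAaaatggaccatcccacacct
Cela1 (chr15:100687981-100688100, minus strand): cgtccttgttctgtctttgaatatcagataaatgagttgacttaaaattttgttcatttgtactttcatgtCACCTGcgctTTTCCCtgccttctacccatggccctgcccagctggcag
Ctrb1 (chr8:111691071-111691190, minus strand): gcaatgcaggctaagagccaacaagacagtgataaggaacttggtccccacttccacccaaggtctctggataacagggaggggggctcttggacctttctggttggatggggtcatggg
Over the 250 bases before the start, CACCTG was present in 7 of the 9 members with a promoter and in 17.2% of 32851 promoters of the same length. The 7 were Prss2, Try4, Cel, Cela1, Cela2a, Cela3b and Amy2b. Cel held it at 4 places, 170, 154, 134 and 65 bases before the start. Cpa1 and Ctrb1 did not hold these letters in this window. TTTCCC was present in 6 of the 9 members and in 21.9% of all promoters. The arrangement CACCTG, 4 further bases and then TTTCCC stood in Cela1, 109 bases before the start, and in 0.0122% of all promoters. Neither motif overlapped the other. A match of letters is a description and does not show that a factor binds there.

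All levels below are log2 signals after RMA, a method that corrects background, scales arrays to each other and summarises the probes of a gene. A difference of 1 is a 2-fold change in signal. Levels of different genes cannot be set against each other, since each probe set has its own brightness. A level was counted as above background when it exceeded the array's median of 5222 negative control probe sets, which lay between 3.84 and 4.61. By that count Ctrb1, Cela1, Cela2a, Cela3b and Clps were above background on all 24 arrays and Cpa1 on 23. Try4 and Cel were above it on 9 arrays each, and Prss2 and Amy2b on 4. The median is a lenient limit. Ctrb1 passed the 95th percentile of the same controls on 19 arrays and Clps on 12. Prss2, Try4 and Cpa1 passed it on 2 arrays each, Cel on 1, and Cela1, Cela2a, Cela3b and Amy2b on 0. Differences were tested with limma over all 30702 genes, and a gene was called at a Benjamini-Hochberg adjusted p under 0.05. In these bulk samples, fewer cells of a type and less RNA per cell cannot be told apart. The mean level of 8 genes of intestinal epithelium, including Epcam, Cdh1 and Cdx2, lay between 9.66 and 10.67 on all arrays. This mean does not check epithelial identity, since P0 tissue, at 9.76 to 9.90, lay within the range of the organoids. At fetal day 30 against day 3, Cdx1 was higher by 0.79 ± 0.15 (limma adjusted p = 0.00051) and Cdx2 by 0.36 ± 0.09 (adjusted p = 0.0091). Krt20 was lower by 1.49 ± 0.34 (adjusted p = 0.0033), and the others were not called.

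**Figure D1:**
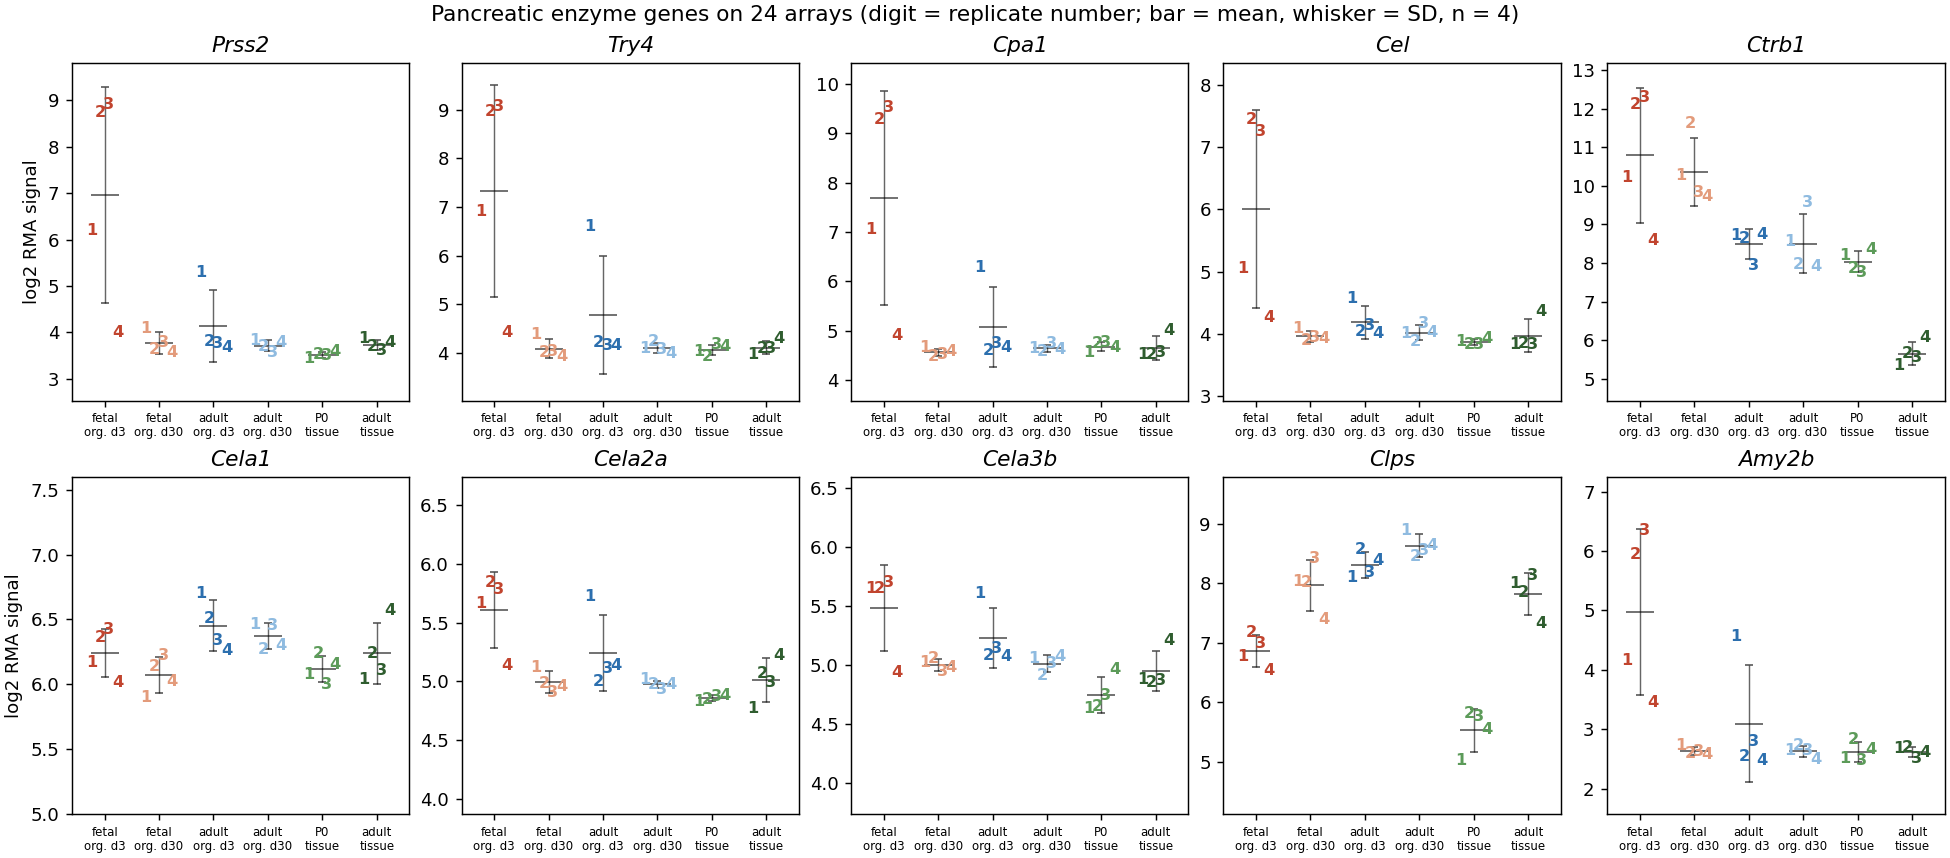
Levels of the 10 genes on every array (log2 RMA signal, each panel with its own axis; groups along the x axis, org. d3 and org. d30 for organoids at day 3 and day 30). Digits are replicate numbers, horizontal bars group means and whiskers SD (n = 4). In Prss2, Try4, Cpa1, Cel and Amy2b the fetal day 3 arrays 2 and 3 stand highest and array 4 close to the other groups, while Ctrb1 and Clps have patterns of their own.

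The trypsinogens Prss2 and Try4, the precursors of trypsin, were high on some fetal day 3 arrays and near background almost everywhere else. Prss2 read 6.20, 8.73, 8.90 and 4.01 on fetal day 3 replicates 1 to 4. Every other group lay between 3.43 and 4.09, apart from adult day 3 replicate 1 at 5.30. Replicates 2 and 3 were thus far above replicate 1, and replicate 4 lay within the range of the fetal day 30 arrays. Try4 read 6.90, 8.95, 9.06 and 4.43 on the same 4 arrays and 6.59 on adult day 3 replicate 1. Its remaining 19 values ran from 3.92 to 4.38. Within the fetal day 3 group the highest and lowest arrays differed 29.7-fold in Prss2 and 24.7-fold in Try4. Prss2 and Try4 belong to a cluster of near-identical trypsinogen genes, so that their probe sets may share signal with each other and with Prss1, Prss3 and Try5.

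Cpa1, a carboxypeptidase that trims C-terminal residues from peptides, showed the same order of arrays. Its fetal day 3 values were 7.06, 9.27, 9.51 and 4.91, against 4.49 to 4.67 at fetal day 30. Adult day 3 replicate 1 was at 6.29 and the other 3 adult day 3 arrays were at 4.60 to 4.75. Cel, the bile salt-dependent lipase that hydrolyses cholesteryl esters, read 5.05, 7.45, 7.26 and 4.27 in the fetal day 3 group. No other array passed 4.57. Amy2b, a pancreatic alpha-amylase that cuts starch, read 4.16, 5.94, 6.35 and 3.45, and the adult day 3 group read 4.56, 2.55, 2.79 and 2.48. All other Amy2b values lay between 2.47 and 2.84. The amylase genes are also near-identical copies, and the Amy2b signal cannot be assigned to 1 of them with certainty.

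The elastases, which are proteases, moved over a narrower range. Cela2a read 5.66, 5.84, 5.78 and 5.14 on the fetal day 3 arrays and 5.72 on adult day 3 replicate 1, against at most 5.14 on the other 3 of that group. Cela3b read 5.65, 5.65, 5.70 and 4.94 in fetal and 5.61, 5.08, 5.14 and 5.07 in adult organoids at day 3. In both genes, fetal day 3 replicates 1 to 3 and adult day 3 replicate 1 stood above the fetal day 30 arrays, which lay at 4.90 to 5.12 for Cela2a and 4.94 to 5.05 for Cela3b. Cela1, an elastase that is also made outside the pancreas, stayed between 5.90 and 6.70 on all 24 arrays. Its group means spanned 0.38 and all 6 groups overlapped with at least 1 neighbour in the order of levels.

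Ctrb1, the precursor of chymotrypsin, was high in every organoid group and in newborn intestine. Fetal day 3 organoids read 10.21, 12.10, 12.28 and 8.58, and fetal day 30 organoids 10.27, 11.62, 9.82 and 9.72. These groups overlapped, and replicate 4 of day 3 lay below every day 30 array. Adult organoids read 8.71, 8.64, 7.92 and 8.74 at day 3 and 8.57, 7.95, 9.56 and 7.92 at day 30. P0 tissue was at 7.76 to 8.34, and adult tissue was lowest at 5.34, 5.66, 5.54 and 6.06, apart from all other groups.

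Clps, colipase, which anchors pancreatic lipase to fat droplets in the presence of bile salts, was ordered differently. It read 6.77, 7.17, 6.98 and 6.54 in fetal day 3 organoids and 8.03, 8.02, 8.42 and 7.39 at day 30, without overlap. Adult organoids read 8.09, 8.57, 8.18 and 8.38 at day 3 and 8.89, 8.44, 8.55 and 8.63 at day 30. P0 tissue was lowest at 5.01, 5.80, 5.76 and 5.53, and adult tissue read 7.99, 7.84, 8.14 and 7.31. The order of means ran from adult day 30 organoids (8.63) over adult day 3 (8.30), fetal day 30 (7.97), adult tissue (7.82) and fetal day 3 (6.86) to P0 tissue (5.53). Neighbours among the first 4 overlapped, while fetal day 3 organoids and P0 tissue each stood apart from the rest.

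Replicate 4 was the lowest fetal day 3 array in all 10 genes, Clps included. Replicate 3 was highest in 7 and replicate 2 in 3. Adult day 3 replicate 1 was the highest of its group in 8 of the 10, the exceptions being Ctrb1, where replicate 4 was highest, and Clps, where it was lowest.

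Over the first month of culture most of the enzyme genes fell in fetal organoids. At day 30 against day 3, 7 of the 10 were lower, 1 was higher and 2 did not pass the test. Prss2 fell by 3.19 ± 0.64 (SE; limma adjusted p = 0.0012), at least 6.6-fold because its day 30 level was not above background. Try4 fell by 3.25 ± 0.65 (adjusted p = 0.0012), at least 8.54-fold, and Cpa1 by 3.12 ± 0.60 (adjusted p = 0.00085). Such lower bounds set the group that was not above background at the array background. They concern the difference of the means on these arrays and do not take in the spread between arrays, so the fall could be smaller. Cel fell by 2.05 ± 0.43 (adjusted p = 0.0017), at least 3.41-fold, and Amy2b by 2.34 ± 0.45 (adjusted p = 0.00078), at least 1.67-fold. The elastases fell less, Cela2a by 0.61 ± 0.14 (adjusted p = 0.0034) and Cela3b by 0.49 ± 0.14 (adjusted p = 0.019). Clps rose by 1.10 ± 0.21 (adjusted p = 0.00061). Ctrb1 was lower by 0.44 ± 0.57 (adjusted p = 0.67) and Cela1 by 0.17 ± 0.12 (adjusted p = 0.36), neither beyond the spread between arrays. Each SE and p-value rests on 1 spread per gene, shared by all 6 groups. In Prss2 the SD was 2.32 at fetal day 3 and 0.23 at day 30, so its SE understates the spread of the fetal day 3 arrays. The same holds for its other comparisons with that group.

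Of all genes tested in that comparison, 8.76% were called lower, 6.77% higher and 15.5% in either direction. The median difference of the 10 members was -1.33, against -0.03 over all genes. The opposite direction of Clps was known when the genes were chosen and is a description. Without fetal day 3 replicates 2 and 3, 4 members were lower in place of 7. These were Prss2 at -1.34 ± 0.41 (adjusted p = 0.042), Cpa1 at -1.42 ± 0.41 (adjusted p = 0.032), Cel at -0.70 ± 0.18 (adjusted p = 0.016) and Amy2b at -1.18 ± 0.35 (adjusted p = 0.039). Try4 then stood at -1.58 ± 0.53 (adjusted p = 0.067). Clps, at 1.32 ± 0.25 (adjusted p = 0.0017), was still higher at day 30, and the Ctrb1 difference changed sign to 0.96 ± 0.49 (adjusted p = 0.22). Fitted on the compared groups alone, 4 members were lower, and Prss2 (adjusted p = 0.06), Cel (adjusted p = 0.075) and Cela3b (adjusted p = 0.1) were not called. Cela3b also lost its call when fetal day 3 replicate 1, 2 or 3 alone was left out, at -0.43, -0.43 and -0.41 (adjusted p from 0.061 to 0.073).

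**Figure D2:**
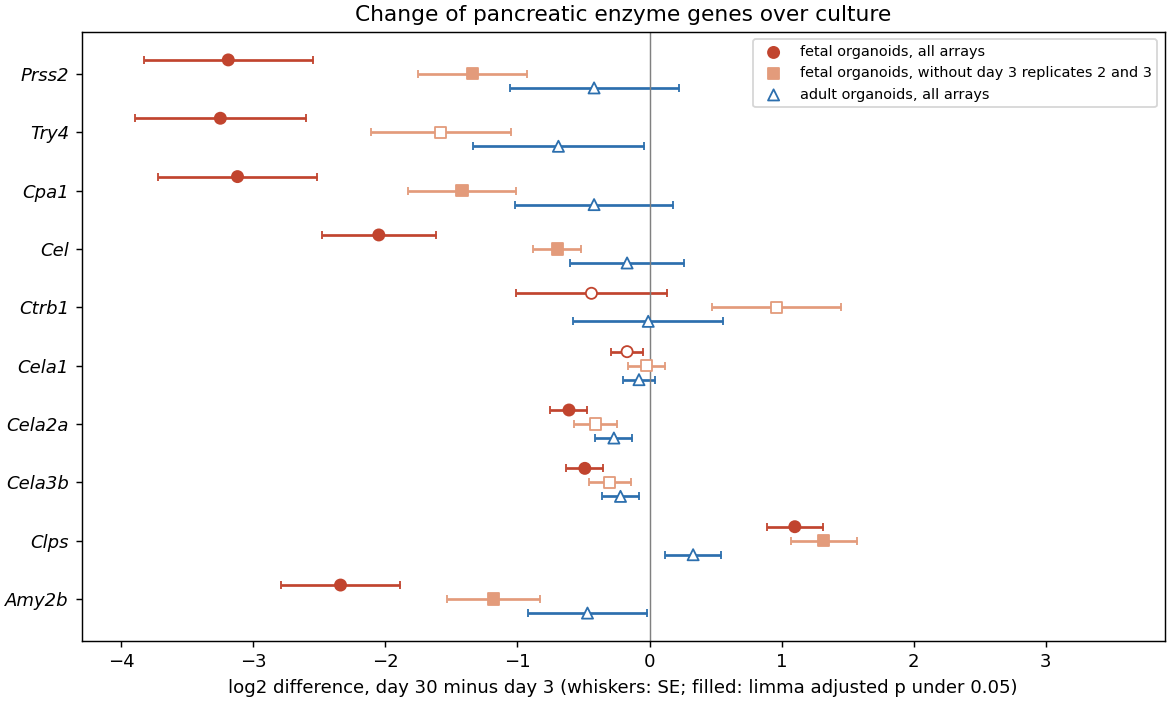
Difference of each gene between day 30 and day 3 of culture (x axis, log2, whiskers SE; filled symbols, limma adjusted p under 0.05). Circles are fetal organoids on all arrays (n = 4 against 4), squares the same without day 3 replicates 2 and 3, triangles adult organoids (n = 4 against 4). Leaving out both arrays moves Prss2 from -3.19 to -1.34 and Clps from 1.10 to 1.32, and no gene passes the test in adult organoids.

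In adult organoids over the same time, none of the 10 genes was called, and none passed an unadjusted p of 0.05. Among all genes, 0.0228% were called lower, 0.0261% higher and 0.0489% in either direction by limma, and 2581 passed the unadjusted threshold. Prss2 differed by -0.42 ± 0.64 (adjusted p = 0.97), Try4 by -0.69 ± 0.65 (adjusted p = 0.9) and Clps by 0.33 ± 0.21 (adjusted p = 0.77). The adult Prss2 and Try4 values rested on day 3 replicate 1, the only adult organoid array on which they were clearly raised.

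Whether fetal and adult organoids changed differently over culture was tested directly, as the difference of both changes. No member was called by limma, while 1.97% of all genes were called lower, 1.02% higher and 2.99% in either direction. At an unadjusted p under 0.05, 6 members and 4183 of all genes passed. The fetal change minus the adult one was -2.77 ± 0.91 in Prss2 (adjusted p = 0.11), -2.70 ± 0.85 in Cpa1 (adjusted p = 0.1) and 0.78 ± 0.29 in Clps (adjusted p = 0.19). The outcome turned on single arrays. Without fetal day 3 replicate 4, 5 members were called lower, with Prss2 at -3.76 (adjusted p = 0.00038). Without adult day 3 replicate 1, 3 were called, Try4, Cpa1 and Amy2b. Without fetal day 3 replicate 1, Cel alone was called. With fetal day 3 replicates 2 and 3 left out, none was.

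At day 3, adult organoids had less enzyme signal than fetal ones and more Clps. Of the 10 genes, 6 were lower in adult organoids, against 10.1% of all genes, and 1 was higher, against 14.5%. In either direction 24.6% of all genes were called. Prss2 was lower by 2.83 ± 0.64 (limma adjusted p = 0.0021), Try4 by 2.55 (adjusted p = 0.0055), Cpa1 by 2.61 (adjusted p = 0.0025) and Ctrb1 by 2.29 ± 0.57 (adjusted p = 0.0042). Cel was lower by 1.82 (adjusted p = 0.0029) and Amy2b by 1.88 (adjusted p = 0.0033). In adult day 3 organoids Prss2 and Amy2b were above background on 1 of the 4 arrays and Try4 and Cel on 3, so the sizes of these 4 differences rest in part on levels that were not measured above background. Clps was 1.44 ± 0.21 higher in adult organoids (adjusted p = 2e-05), with no overlap of arrays. Cela2a and Cela3b were called lower as well when either fetal day 3 replicate 4 (at -0.52 and -0.44) or adult day 3 replicate 1 (at -0.52 and -0.39) was left out. This comparison shares its fetal day 3 arrays with the culture comparison. Without replicates 2 and 3 none of the 10 was called lower, Prss2 being at -0.97 (adjusted p = 0.11), whereas Clps was still higher by 1.65 ± 0.25 (adjusted p = 0.00013). With adult day 3 replicate 1 also left out, 5 were called lower, Prss2 being at -1.36 (adjusted p = 0.011). Of all genes, 15.2% were then called, against 24.6% on all arrays. On the compared groups alone, 1 member, Ctrb1, was called lower.

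At day 30, Ctrb1 and Clps were the members called between origins. Ctrb1 was lower in adult organoids by 1.86 ± 0.57 (limma adjusted p = 0.04), or 3.62-fold, and Clps was higher by 0.66 ± 0.21 (adjusted p = 0.045), or 1.58-fold. Among all genes, 2.17% were called lower, 6.8% higher and 8.97% in either direction. The Ctrb1 groups did not overlap (9.72 to 11.62 against 7.92 to 9.56), and neither did those of Clps, although the highest fetal array, at 8.42, came close to the lowest adult one, at 8.44. Both calls were lost under several settings. On the compared groups alone the adjusted p was 0.063 for Ctrb1 and 0.1 for Clps, and Ctrb1 stood at -1.44 (adjusted p = 0.16) without fetal day 30 replicate 2. Ctrb1 also lost its call without fetal day 30 replicate 1 or without adult day 30 replicate 1, 2 or 4 (adjusted p from 0.073 to 0.12). Clps lost its call without fetal day 30 replicate 1, 2 or 4 or adult day 30 replicate 1, 3 or 4 (adjusted p from 0.071 to 0.16), and with arrays centred on their median (adjusted p = 0.085). The other 8 genes differed by 0.30 or less between origins.

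The tissues differed in the same genes. Adult intestine had less Ctrb1 than P0 intestine, by 2.39 ± 0.57 (limma adjusted p = 0.0026) or 5.24-fold, and more Clps, by 2.29 ± 0.21 (adjusted p = 8e-09) or 4.9-fold. The arrays of the 2 stages did not overlap in either gene. Among all genes 12.2% were called lower, 15% higher and 27.1% in either direction. The other 8 members differed by at most 0.22 and were not called. Both calls were kept in every alternative tried.

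Adult day 3 organoids exceeded adult tissue in Ctrb1 by 2.85 ± 0.57 (limma adjusted p = 0.00026), or 7.23-fold, the only member called. In this comparison 21.9% of all genes were called higher, 13.5% lower and 35.4% in either direction. Clps was 0.48 ± 0.21 above tissue (adjusted p = 0.073). It was called without adult tissue replicate 3, at 0.59 (adjusted p = 0.043), and Cela1 was without adult tissue replicate 4, at 0.32 (adjusted p = 0.026).

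Fetal day 3 organoids were set against P0 tissue, the nearest tissue stage, although embryonic day 19 and P0 are not the same age. Of the 10 members 9 were higher in organoids, where 30.5% of all genes were called higher, 13.8% lower and 44.3% in either direction. Prss2 was higher by 3.45 ± 0.64 (limma adjusted p = 0.00018), at least 6.08-fold, and Ctrb1 by 2.75 ± 0.57 (adjusted p = 0.00048). Clps was higher by 1.34 ± 0.21 (adjusted p = 2.1e-05), and Cela2a by 0.75 ± 0.14 (adjusted p = 0.00017). Cela1 was the exception, at 0.12 ± 0.12 (adjusted p = 0.39), and the median over all genes was 0.14. Without fetal day 3 replicates 2 and 3, the same 9 were called, with Prss2 at 1.59 ± 0.41 (adjusted p = 0.0054) and Clps at 1.12 ± 0.25 (adjusted p = 0.0018).

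Other proteins secreted by acinar cells fell into sets of different pattern. Of 25 listed genes 21 were measured, and in fetal organoids over culture 9 were lower at day 30 and 2 higher. The trypsinogens Prss3, at -2.49 ± 0.53 (limma adjusted p = 0.0019; at least 3.5-fold), and Prss1, at -2.48 ± 0.50 (adjusted p = 0.0013), were lower. So were the carboxypeptidase Cpb1, at -1.78 ± 0.40 (adjusted p = 0.0033; at least 1.38-fold), and the lipase-related Pnliprp1, at -1.77 ± 0.52 (adjusted p = 0.022). Prss3 and Cpb1 were not above background at day 30, hence the bounds. Pnliprp1 read 6.40, 8.64, 8.42 and 4.71 on the fetal day 3 arrays, the same order of arrays as in Cel. Klk1, a tissue kallikrein, was higher by 1.90 ± 0.29 (adjusted p = 6.9e-05), and the secreted ribonuclease Rnase1 by 0.94 ± 0.21 (adjusted p = 0.0027). The list's median was -0.38. Without fetal day 3 replicates 2 and 3, 1 of the 21 was lower and 1 higher, with a median of -0.20.

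**Figure D3:**
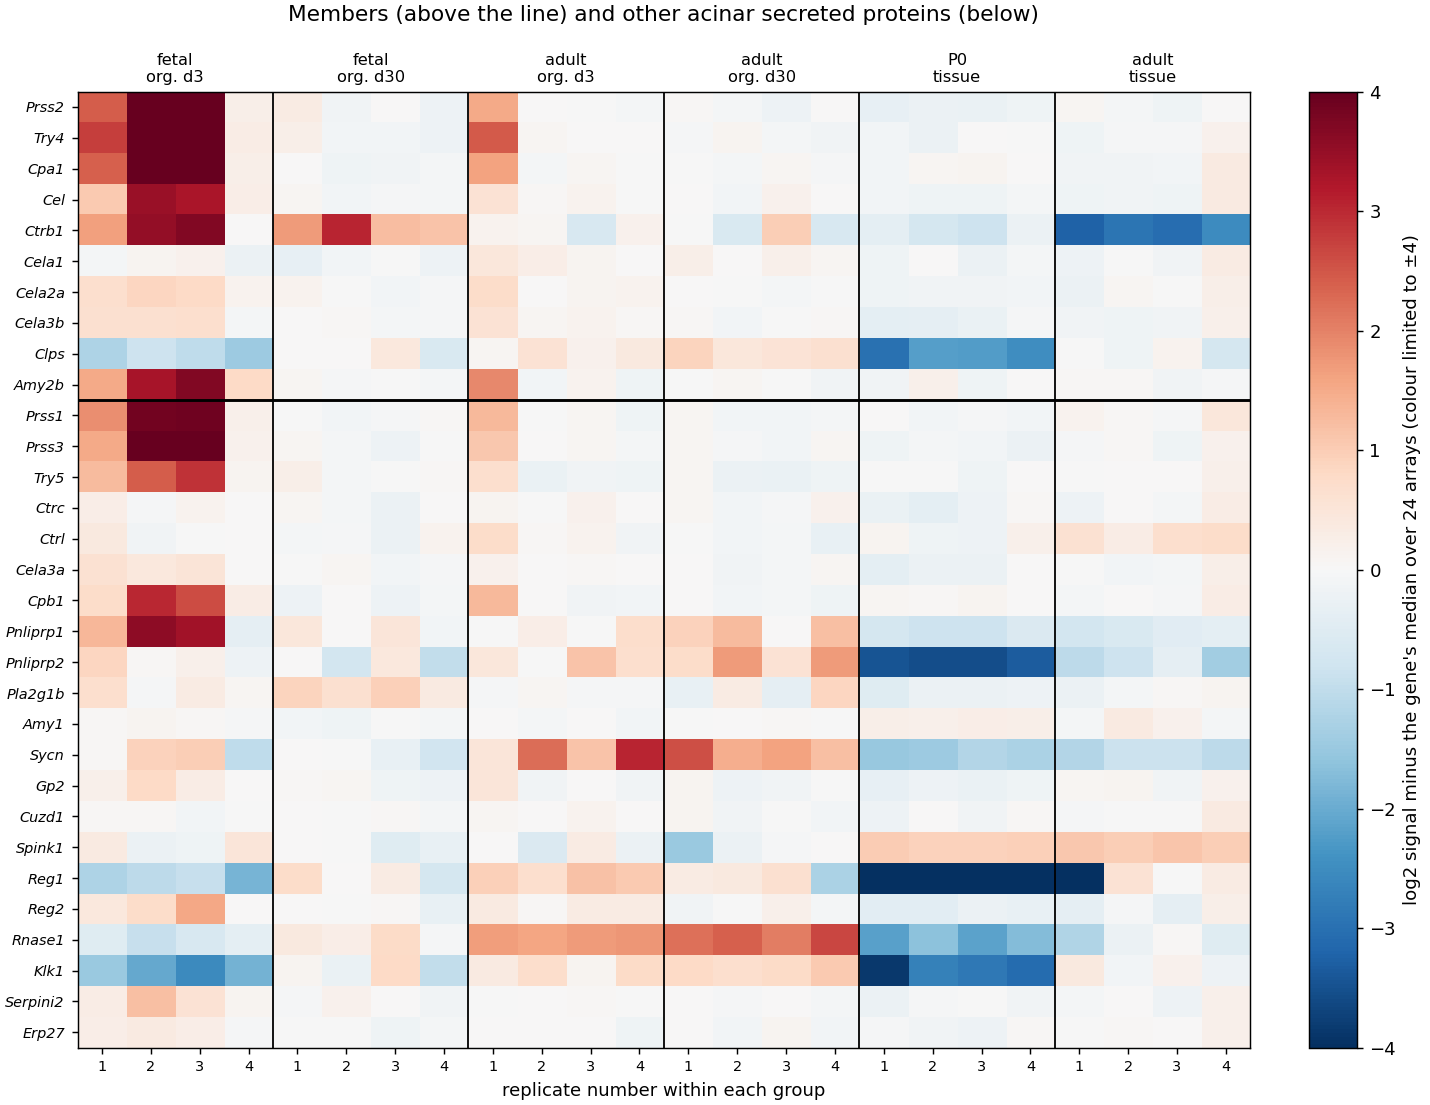
Level of each gene on each of the 24 arrays, as log2 signal minus the gene's own median (colour, limited to ±4), with groups in blocks and replicate numbers along the x axis. The 10 members stand above the thick line and 21 other acinar secreted proteins below it. Prss1, Prss3, Try5, Cpb1 and Pnliprp1 are raised on fetal day 3 replicates 2 and 3, like Prss2 and Cpa1. The group means of Klk1, Reg1 and Rnase1 are lowest in P0 tissue and next lowest in fetal day 3 organoids, like Clps. Unlike Clps, Rnase1 in adult tissue (mean 5.35) is close to fetal day 3 (5.22), and Reg1 is split within adult tissue.

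Others on the list differed with stage or origin. Reg1, a secreted C-type lectin, was 5.23 ± 0.65 higher in adult than in P0 tissue (limma adjusted p = 1.4e-06), and Klk1 was 3.20 ± 0.29 higher (adjusted p = 8.1e-09). Pnliprp2, a lipase that also cleaves galactolipids, was higher by 2.55 ± 0.31 (adjusted p = 1e-06). At day 30, adult organoids exceeded fetal ones in Sycn, a zymogen granule protein, by 1.98 ± 0.43 (adjusted p = 0.0046). They also did in Rnase1 by 1.98 ± 0.21 (adjusted p = 7.9e-06) and in Pnliprp2 2.83-fold (adjusted p = 0.0033). Spink1, the secreted inhibitor of trypsin, was present everywhere, from 9.60 in an adult day 30 organoid array to 12.20 in adult tissue. It was lower in adult day 3 organoids than in adult tissue by 1.16 ± 0.24 (adjusted p = 0.00047).

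The acinar transcription factors moved little. Of 6 listed genes of this kind 5 were measured, and over fetal culture 2 were lower and 1 higher. Ptf1a fell by 0.40 ± 0.12 (limma adjusted p = 0.019), from 4.63, 4.49, 4.50 and 3.99 to between 3.79 and 4.21. Its day 30 level was not above background, which makes this a fall of at least 1.12-fold. Rbpjl fell by 0.22 ± 0.07 (adjusted p = 0.043). Bhlha15, which matures secretory cells of several organs, rose by 0.57 ± 0.17 (adjusted p = 0.026). Without fetal day 3 replicates 2 and 3, none of the 5 was lower and 1 was higher.

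The activating end of the system was read from Tmprss15, which encodes enteropeptidase. It read 2.63, 7.29, 4.55 and 4.53 in adult tissue and stayed between 2.60 and 3.73 on the other 20 arrays. Adult tissue exceeded P0 tissue by 1.93 ± 0.52 (limma adjusted p = 0.0076), at least 1.31-fold because P0 tissue was not above background, with 1 adult array inside the P0 range. Cck, the hormone that stimulates acinar secretion, rose over fetal culture by 0.93 ± 0.27 (adjusted p = 0.022), and was 1.23 ± 0.27 higher in adult than in fetal organoids at day 3 (adjusted p = 0.0017). Of 6 enteroendocrine markers measured, a list that does not hold Cck, 5 were higher in each of these comparisons, and without fetal day 3 replicates 2 and 3 the counts were 1 and 2 of 6. Their part in the Cck difference was not tested. Without the same arrays, none of Tmprss15, Cck and Sct was called higher over fetal culture. Sct, secretin, which stimulates ductal bicarbonate, was 0.83 ± 0.16 lower in adult day 3 organoids than in adult tissue (adjusted p = 0.00017).

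Stomach markers varied with the enzyme genes on the fetal day 3 arrays. Lists of other tissues shared that order of arrays only in part or not at all. The mean of 12 stomach genes was 6.36, 7.67, 7.57 and 5.04 on fetal day 3 replicates 1 to 4, against 4.69 to 5.71 at day 30. Its order of arrays was nearly that of the enzymes. On adult day 3 replicate 1, where several enzyme genes were raised, the stomach mean was 5.33, against 5.04, 5.16 and 5.07 on replicates 2 to 4. Of the 12, 7 were lower at fetal day 30, among them Gkn2 at -4.22, Tff1 at -3.85, Gkn1 at -3.42 and Muc5ac at -2.69, products of surface mucous cells. Without replicates 2 and 3, 3 of the 12 were lower. Pgc, a pepsinogen of chief cells, was among the 7, at -0.52 ± 0.16 (limma adjusted p = 0.025), while Cblif at -0.06, Atp4a at 0.10 and Atp4b at -0.12, genes of chief and parietal cells, did not pass the test. Against P0 tissue all 12 were higher in fetal day 3 organoids, and 11 without replicates 2 and 3.

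Mesenchyme and smooth muscle genes, 11 measured, had mean levels of 5.92, 6.68, 6.75 and 6.18 on the fetal day 3 arrays and 5.06 to 5.36 at day 30, and 10 of them were lower at day 30. Without fetal day 3 replicates 2 and 3, 6 of the 11 were lower. On adult day 3 replicate 1 the mesenchyme mean was 6.08, against 5.14 to 5.18 on the other 3, and Dcn, a fibroblast proteoglycan, read 8.88 against 4.08 to 4.73. P0 tissue had the highest mesenchyme level, 8.31 to 8.92, with Prss2 at 3.43 to 3.60. The mean of 8 Paneth cell genes was 7.05 and 7.03 on fetal day 3 replicates 2 and 3 and 8.77 and 8.88 on replicates 1 and 4. Of 7 islet genes 2 were lower at fetal day 30, Iapp, the amyloid peptide of beta cells, by 1.66 ± 0.20 (limma adjusted p = 3.9e-06), at least 1.58-fold since its day 30 level was not above background, and Ins2 by 0.35 ± 0.10 (adjusted p = 0.02). Iapp read 5.17, 4.97, 5.41 and 4.04 on the fetal day 3 arrays. Endothelial genes, 5 of 6, and leukocyte genes, 4 of 7, were also lower at fetal day 30, with the same counts without replicates 2 and 3. The endothelial mean was 4.58 to 4.80 on the fetal day 3 arrays and 4.00 to 4.07 at day 30, and the leukocyte mean 5.23 to 5.59 and 4.61 to 4.82. Itgam, an integrin of myeloid cells, read 5.58, 6.91, 6.91 and 5.92 on the fetal day 3 arrays, highest on replicates 2 and 3. The other leukocyte genes measured did not share this order, and the leukocyte mean on replicates 1 to 4 was 5.23, 5.59, 5.47 and 5.48. The part of these markers in the enzyme differences was not tested.

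**Figure D4:**
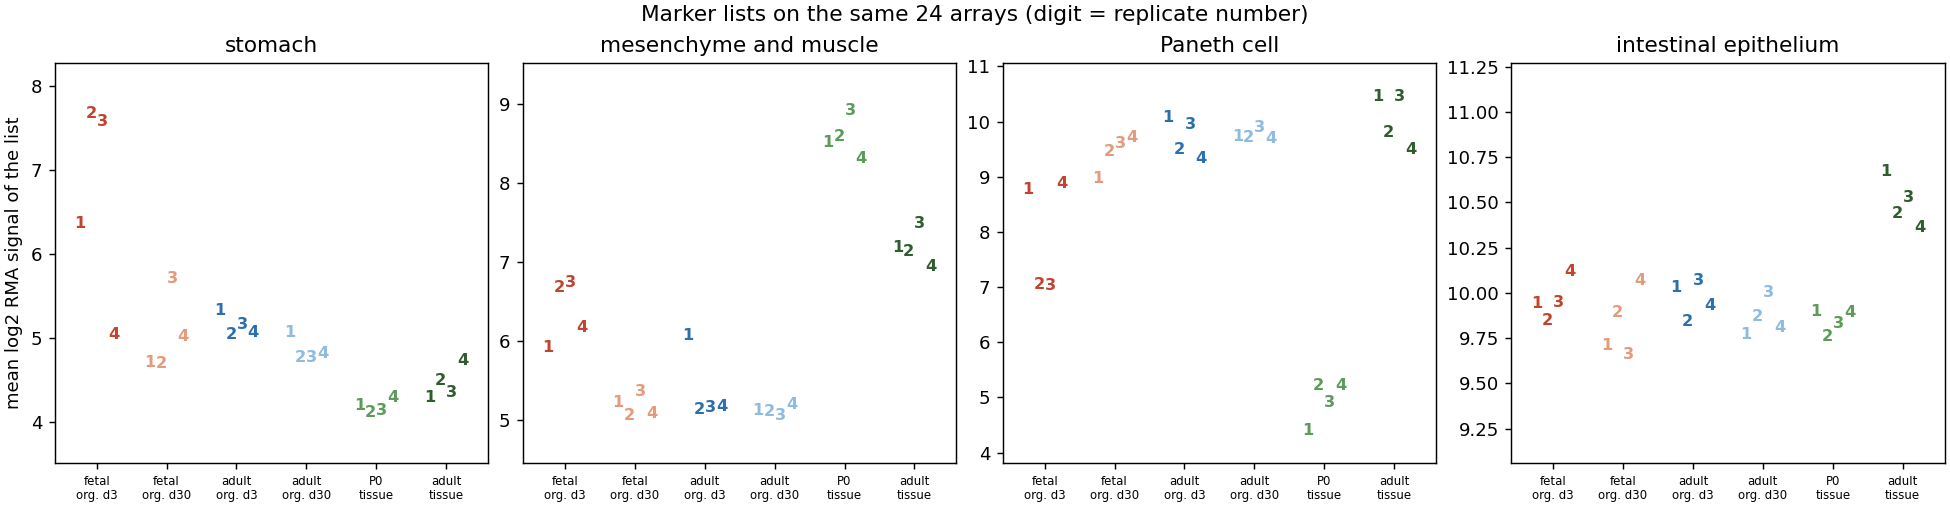
Mean log2 RMA signal of 4 marker lists on every array (y axis), by group (x axis), with digits for replicate numbers. Fetal day 3 replicates 2 and 3 have the highest stomach means (7.67 and 7.57) and the lowest Paneth cell means among organoids (7.05 and 7.03), and adult day 3 replicate 1 has the highest mesenchyme mean of the adult organoids (6.08).

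The genes whose levels most resembled each member were found by Pearson's r over the 24 arrays, among 13469 genes, as a description. Prss1 and Mucl3 were among the 5 nearest genes of 6 members (r from 0.89 to 0.99). Cldn18, Gkn1 and Slc5a5 were among those of Prss2, Try4, Cpa1, Cel and Amy2b (r from 0.91 to 0.98). By Spearman's rank correlation, the 5 nearest genes of these members held none of Prss1, Mucl3, Cldn18, Gkn1 and Slc5a5. Cldn18 encodes a claudin of stomach and lung epithelium, and Slc5a5 the iodide transporter found in thyroid and stomach. The nearest genes of Clps were Klk1 (r = 0.96), Lrrc31, Sorl1, Klk1b5 and Klk1b9 (r = 0.94), where the kallikreins are close paralogs that can share probe signal. Ctrb1 was nearest to Gipc1 (r = 0.88), Slc35a1, Fads3, Fubp3 and Lrrc14. Cela1 had no close neighbour, the nearest being Hmox2 at r = 0.76.

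Among the members themselves, Prss2, Try4, Cpa1, Cel and Amy2b had r between 0.95 and 0.99 with each other. Cela2a and Cela3b had r = 0.94 between them. Ctrb1 had r = 0.62 with Prss2, and Clps r = -0.10. These values share the same 24 arrays and rest largely on fetal day 3 replicates 1 to 3. By rank, the correlation of Prss2 with Cpa1 was 0.43.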

How the data were processed

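Total RNA, extracted with Trizol, was biotin-labelled from 1 µg per sample and hybridised to one-colour arrays, per the labels' protocols. The log2 values deposited by the authors came from RMA in Affymetrix Expression Console, per the submitters' processing notes. Their versions and the genome build are not given in those sources. Of 72688 probe sets, 31258 named 1 gene and were used, and the one with the highest mean was kept where a gene had several, giving 30702 genes. Signals near background are compressed, so differences of dim genes are understated. The number of arrays limits precision.

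A group-means model over all 24 arrays was fitted with limma 3.58.1 in R 4.3.3 and tested on simulated data, in which a gene had the same spread in every group. Tests were two-sided, with Benjamini-Hochberg adjustment over all genes. Comparisons that use the same group share its arrays. Alternatives changed the probe set rule, the filter, the variance prior, the scaling, array weights, the groups fitted, the threshold and single arrays. The members and lists were chosen with earlier results of these data known. Named genes are the members, Tmprss15, Cck, Sct, the called genes of each list with the largest differences (at most 4 in each direction), and the 5 genes most like each member. Others named for their levels (Spink1, Try5, Pgc, Cblif, Atp4a, Atp4b, Itgam, Epcam, Cdh1, Cdx2 and Dcn) were chosen after their values were seen.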

Additional observations from a re-analysis of the deposited data

Results flagged for a closer look

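Within each group of 4 arrays, the highest or lowest value was singled out where its gap to the next value took up most of the group's range (Dixon's critical value). Of 60 combinations of member and group, 10 were, or 16.7%. For a single combination chance gives about 1 in 20. The members share arrays and several move together, so the 60 are not separate trials and the percentage cannot be set against that rate.

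On adult day 3 replicate 1, 5 genes stood above the other 3 arrays of the group. Prss2 was at 5.30 (others 3.69 to 3.80), Try4 at 6.59 (4.15 to 4.22) and Cpa1 at 6.29 (4.60 to 4.75). Cela3b was at 5.61 (5.07 to 5.14) and Amy2b at 4.56 (2.48 to 2.79). On adult tissue replicate 4, Cpa1 was at 5.02 (others 4.53 to 4.56), Cel at 4.36 (3.83 to 3.85) and Cela3b at 5.20 (4.85 to 4.88). In the low direction, Ctrb1 was at 7.92 on adult day 3 replicate 3 (others 8.64 to 8.74). Cela3b was at 4.94 on fetal day 3 replicate 4 (others 5.65 to 5.70).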

How the results depend on the processing

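Over 1936 recomputed values, no called difference changed sign. In fetal culture, members called lower went from 7 to 4 without fetal day 3 replicates 2 and 3 and to 4 with the compared groups alone. For the difference between fetal and adult culture change, lower calls went from 0 to 4 with array weights and to 1 without fetal day 3 replicates 2 and 3 and adult day 3 replicate 1, an alternative chosen after seeing the data. In that alternative 1.92% of all genes were called, against 2.99% on all arrays. With single arrays left out, lower calls of members ranged from 0 to 5. For adult minus fetal organoids at day 3, lower calls went from 6 to 0 without fetal day 3 replicates 2 and 3 and to 1 with the compared groups alone. At day 30, the 1 lower call went to 0 with a trended robust prior, the compared groups alone and a threshold of 0.01. The 1 higher call went to 0 with centring, a second quantile normalization, array weights, the compared groups alone and a threshold of 0.01. With single arrays left out, each ranged from 0 to 1. For adult day 3 organoids minus adult tissue, higher calls went from 1 to 3 with array weights and to 2 with the compared groups alone, and ranged from 1 to 2 with single arrays left out. The cause of these shifts was not tested.

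A stricter background, the 95th percentile of the negative controls, lowered the member levels above background from 169 to 38 of 240. Spearman's in place of Pearson's correlation shared 9 of 50 nearest genes. The filter on dim genes kept 8 members and dropped Cel and Amy2b. Arrays of the same replicate number were seldom alike across groups (at most 4 of 15 pairs with a correlation over 0.1). This count takes all pairs of groups together and cannot show whether particular groups were paired. With the replicate number as a block, 7 members were called lower and 1 higher in fetal culture, as without it. No other count of members changed. The percentage of all genes called in adult culture went from 0.0489 to between 0.00326 and 1.21.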

Other observations

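Reg1 was split within adult tissue. It read 7.70 on replicate 1 and 12.26, 11.69 and 12.01 on replicates 2 to 4, and Tmprss15 was also lowest on replicate 1, at 2.63. Clps did not follow, at 7.99 on that array against 7.31 to 8.14. In newborn tissue Reg1 lay between 5.12 and 6.39, and Pnliprp2 between 5.44 and 5.66 against 7.60 to 8.62 in adult tissue. Pnliprp2 reached 10.69 in adult day 30 organoids. No explanation of these values was tested.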
